A study of Rattus norvegicus with 8 samples.

Results

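The 8 genes described here belong to the burning of fatty acids and to its control by the nuclear receptor PPAR-alpha: *Cpt1a*, *Cpt2*, *Ehhadh*, *Acadm*, *Acaa2*, *Hadha*, *Pdk4* and the receptor gene *Ppara* itself. They were taken by gene symbol, as every probe set that the array's annotation gives to one of them alone, which yielded 13 probe sets for 8 of the 14217 genes with such a probe set. They were grouped by their known role as PPAR-alpha targets, and no measured value enters the rule. The choice of these genes was, however, made with earlier results of these data known. The arrays hold RNA of epithelial cells that were loosened from segments of the small intestine, near its upper end, of Wistar rats aged 4 months, female by the study's methods. Rats of the WR group had no water for 12 h. Rats of the DSW1200 group drank deep sea water of hardness 1200 for 3 days, rats of the SeW group drank selenium water for 3 days, and rats of the TW group, the controls, drank tap water for 3 days. DSW1200 is sea water from depth with its sodium content lowered, and the selenium of SeW was sodium selenite, by the study's methods. Each group has 2 arrays of the Affymetrix Rat Genome 230 2.0 type, which gives 1 value for each probe set. Whether 2 arrays of a group came from separate rats or pools is not given in the sources used here, so the p-values below measure only the spread between these arrays, which may be technical.

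Long-chain fatty acids enter mitochondria through the carnitine shuttle, are shortened by rounds of dehydrogenation, hydration, oxidation and thiolysis, and leave as acetyl-CoA, which the liver and, in suckling animals, the intestine can turn into ketone bodies. PPAR-alpha senses fatty acids, binds DNA as a partner of a retinoid X receptor, and in liver and intestine switches on enzymes of this route during fasting or fat feeding. Pyruvate dehydrogenase kinase, the product of *Pdk4*, shuts off the entry of glucose carbon into the same acetyl-CoA pool. Genes of ketone bodies are described further on, among the other genes of the pathway, and none of the 8 genes makes ketone bodies itself.

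The receptor complex is known to bind 2 copies of the hexamer AGGTCA with 1 base between them. Promoters, read from RefSeq on build GRCr8 as 250 bases before to 50 bases after each start, were available for 7 of the 8 genes, all but *Acaa2*. They were searched on both strands for AGGTCA and for that pair of hexamers, whose matches overlap those of the single hexamer. None of the 7 promoters held an exact AGGTCA, which 16.2% of 33469 rat promoters of this length held, and none held the exact pair, which 0.0538% of them held. With up to 3 mismatches the pair was found in 2 of 7, *Ehhadh* and *Hadha*, against 24.9% of all promoters, and with up to 4 in 6 of 7, against 80.3%. Loose matches of that kind were thus common among all promoters. The promoters of *Hadha*, *Cpt2* and *Pdk4* are printed because these 3 genes had the smallest p-values in the test over all 4 groups. The capitals mark the first window found with the fewest mismatches to the pair of hexamers. Other windows can tie with it, and in *Pdk4* another window also has 4 mismatches. For *Hadha* (chr6:31907551-31907850, plus strand) this window has 3 mismatches and begins at position -195 from the start. For *Cpt2* (chr5:127910769-127911068, minus strand) it has 4 mismatches and begins at -187, and for *Pdk4* (chr4:34568280-34568579, minus strand) it has 4 mismatches and begins at -178.
Hadha: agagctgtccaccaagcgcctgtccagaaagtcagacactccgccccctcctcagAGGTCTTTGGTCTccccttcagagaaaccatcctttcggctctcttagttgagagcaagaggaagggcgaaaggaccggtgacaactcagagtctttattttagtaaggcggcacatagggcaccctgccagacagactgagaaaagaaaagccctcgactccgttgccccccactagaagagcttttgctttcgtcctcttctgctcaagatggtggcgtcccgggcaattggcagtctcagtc
Cpt2: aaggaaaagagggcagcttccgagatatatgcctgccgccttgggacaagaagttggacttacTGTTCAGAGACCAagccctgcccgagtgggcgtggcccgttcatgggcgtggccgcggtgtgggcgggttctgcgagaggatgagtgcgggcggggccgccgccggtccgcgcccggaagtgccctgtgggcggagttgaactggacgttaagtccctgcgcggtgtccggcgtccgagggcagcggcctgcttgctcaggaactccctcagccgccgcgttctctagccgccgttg
Pdk4: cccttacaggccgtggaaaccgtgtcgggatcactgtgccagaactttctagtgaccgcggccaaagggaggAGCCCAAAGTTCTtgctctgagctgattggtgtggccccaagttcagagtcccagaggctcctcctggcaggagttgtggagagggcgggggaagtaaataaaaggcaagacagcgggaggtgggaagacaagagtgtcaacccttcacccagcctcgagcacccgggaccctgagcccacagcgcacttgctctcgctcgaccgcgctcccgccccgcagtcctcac
These letters describe the windows only, and no binding was measured.

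Brightness differed between the arrays before normalization. As deposited, the median probe set had a signal of 9 and 8 in WR, of 6.1 and 7 in DSW1200, of 11.1 and 10.6 in SeW, and of 8.4 and 4.3 in TW. Arrays were therefore quantile normalized, which gives every array the same distribution of signals, and each value below is a normalized signal on the linear scale. Levels of different probe sets cannot be set against each other, since probes differ in brightness. The ratio of 3' to 5' probe signal of beta-actin, which goes up as RNA is shorter or more degraded, averaged 23 in WR, 29.9 in DSW1200, 12.3 in SeW and 22.3 in TW. Of 9 villus enterocyte genes, *Vil1*, *Anpep* and *Fabp2* read 2700 to 3350, 3760 to 5140 and 4640 to 6440 over the 8 arrays. The dimmest of the 9, *Treh* and *Slc5a1*, read 37.5 to 93.5 and 126 to 260. Of 5 fat cell genes, *Lep* read 0.238 to 0.488, *Adipoq* 6.2 to 13.8, and *Plin1* and *Cfd* at most 9.48 and 13.8, while *Cidec* read 102 to 306. In such bulk samples, fewer cells of a type and less RNA per cell cannot be told apart.

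Of the 8 genes, 7 were bright enough to test, which required that the mean over the 8 arrays be above 6.69, the level in the middle of all probe sets. The exception was *Ppara*. The 7 were fitted together with all other genes, 9258 in all, by limma, and p-values were adjusted by the Benjamini-Hochberg method over the 9258. None of the 7 passed an adjusted p of 0.05 in any of the 6 comparisons between groups or in the F test over the 4 groups. The log2 changes against TW lay between -0.57 and 0.28 for WR, between -0.71 and 0.12 for DSW1200 and between -0.09 and 0.39 for SeW, and none reached 2-fold. With 2 arrays against 2, an exact two-sided permutation test of a single gene cannot give a p below 0.333.

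**Figure D1:**
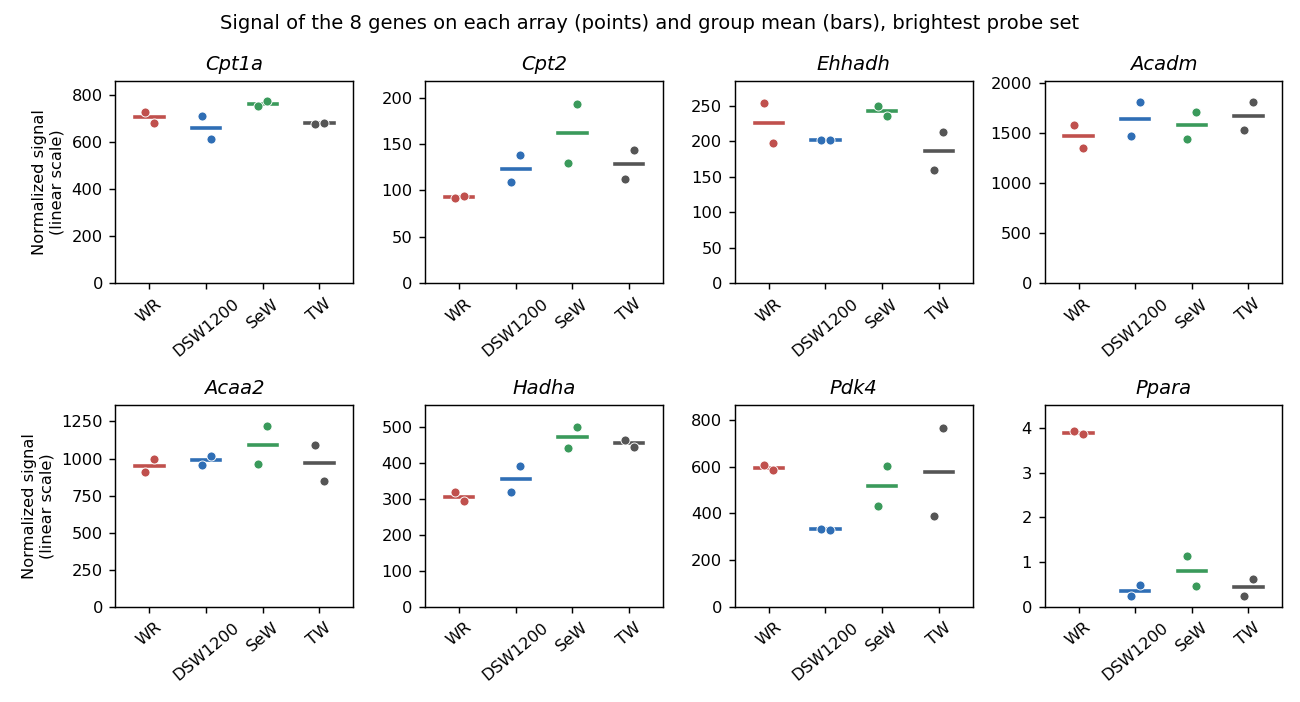
Normalized signal (linear scale, from 0) of the brightest probe set of each of the 8 genes on each array (points) with the mean of each group (bars), 2 arrays a group. *Hadha* shows both WR arrays (318 and 295) and both DSW1200 arrays (320 and 392) under both TW arrays (464 and 445), *Pdk4* shows TW arrays that lie far apart (387 and 764), and *Ppara* stays under 4 on every array.

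*Cpt1a* encodes the carnitine palmitoyltransferase of the outer mitochondrial membrane, the gate through which long-chain acyl groups enter oxidation and the step that malonyl-CoA blocks. Its signal was 725 and 682 on the WR arrays, 709 and 612 on the DSW1200 arrays, 751 and 772 on the SeW arrays, and 675 and 681 on the TW arrays. SeW was the highest group and did not overlap any of the others, both WR arrays lay just above TW, and DSW1200 spanned the TW values. The log2 change was 0.05 ± 0.14 (SE) in WR against TW, with an adjusted p of 0.926 by limma. It was -0.04 in DSW1200 (adjusted p 0.937) and 0.17 in SeW (adjusted p 0.555), with a 95% interval of -0.15 to 0.48 for SeW. *Cpt1a* was the steadiest of the 7 between arrays of a group, with a standard deviation of 0.0827 on the log2 scale, against a median of 0.26 over all tested genes.

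*Cpt2* encodes the partner enzyme on the inner membrane, which hands the acyl group back to coenzyme A in the matrix. Signals were 91.9 and 93.8 in WR, 109 and 138 in DSW1200, 130 and 193 in SeW, and 112 and 144 in TW. Both WR arrays lay below every other array, and the DSW1200 and SeW arrays overlapped those of TW. The log2 change was -0.45 ± 0.24 (SE, 95% interval -0.98 to 0.08) in WR, -0.05 in DSW1200 and 0.32 in SeW, with adjusted p-values of 0.551, 0.952 and 0.501. Between SeW and WR, the groups farthest apart, it was 0.77 ± 0.24, with an unadjusted p of 0.00893 and an adjusted p of 0.153 by limma.

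*Acadm*, the medium-chain acyl-CoA dehydrogenase, takes the first oxidative step for chains of medium length. It read 1580 and 1350 in WR, 1470 and 1810 in DSW1200, 1440 and 1710 in SeW, and 1530 and 1810 in TW. All 4 groups overlapped. The log2 changes against TW were -0.19, -0.03 and -0.09 in WR, DSW1200 and SeW, with adjusted p-values of 0.725, 0.956 and 0.823. In this fit the interval for SeW, -0.46 to 0.29, leaves out a 2-fold change in either direction. Under other settings the change in SeW lay outside it, at -0.91 with the beta-actin ratio as a covariate and 0.72 on the values as deposited.

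*Hadha* encodes the alpha subunit of the mitochondrial trifunctional protein, which hydrates and then oxidizes long-chain enoyl-CoA. It had the smallest p of the 7 genes in the F test (p 0.00977, adjusted p 0.156). Its signal was 318 and 295 in WR (mean 307 ± 16, SD, n = 2) and 320 and 392 in DSW1200 (356 ± 50.8, n = 2). It was 442 and 500 in SeW (471 ± 40.6, n = 2) and 464 and 445 in TW (455 ± 13, n = 2). WR and DSW1200 thus lay under TW on every array, and SeW spanned TW. In WR against TW the log2 change was -0.57 ± 0.16 (SE, 95% interval -0.93 to -0.21), with an unadjusted p of 0.00571 and an adjusted p of 0.429. In DSW1200 it was -0.36 (adjusted p 0.617) and in SeW 0.05 (adjusted p 0.9). Against WR, SeW was higher by 0.62 ± 0.16 on the log2 scale (adjusted p 0.114), and against DSW1200 by 0.41 (adjusted p 0.199). In a fit to the 4 arrays of SeW and WR alone the adjusted p of that difference was 0.0407, where 446 of all 9258 genes were called, against 114 in the fit to all 8 arrays.

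*Acaa2*, the mitochondrial thiolase that splits off acetyl-CoA at the end of each round, read 909 and 996 in WR, 956 and 1020 in DSW1200, 966 and 1220 in SeW, and 1090 and 846 in TW. Its WR and DSW1200 arrays lay within the range of TW. The log2 change was -0.01 in WR, 0.04 in DSW1200 and 0.18 in SeW, with adjusted p-values of 0.983, 0.95 and 0.623.

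*Ehhadh* is the only one of the enzymes here that works in peroxisomes, where it hydrates and dehydrogenates chains that mitochondria handle poorly. Signals were 254 and 198 in WR, 201 on both arrays in DSW1200, 249 and 235 in SeW, and 160 and 213 in TW. SeW lay above TW on both arrays, whereas WR and DSW1200 overlapped TW. The change in SeW, 0.39 ± 0.195 on the log2 scale (SE, 95% interval -0.05 to 0.82), had an adjusted p of 0.307. With 1 array left out it ranged over 0.18 to 0.59, and that of *Cpt2* over 0.03 to 0.60. In WR it was 0.28 (adjusted p 0.648) and in DSW1200 0.12 (adjusted p 0.859).

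*Pdk4* read 606 and 585 in WR (mean 596 ± 15, SD, n = 2), 335 and 331 in DSW1200 (333 ± 3.23, n = 2), 431 and 603 in SeW (517 ± 121, n = 2), and 387 and 764 in TW (576 ± 266, n = 2). Both DSW1200 arrays lay below every other array. The log2 change in DSW1200 against TW was -0.71 ± 0.28 (SE, 95% interval -1.34 to -0.08), with an unadjusted p of 0.0311 and an adjusted p of 0.617 by limma. Its size rested on the TW arrays: without TW array 1 it was -1.20, and without TW array 2 it was -0.22. Each of these fits has 1 TW array, which is assumed to vary like the other groups. Against WR, whose arrays lay close together, *Pdk4* in DSW1200 differed by -0.84 (unadjusted p 0.0142, adjusted p 0.841). The log2 changes of WR and SeW against TW were 0.13 and -0.09, with adjusted p-values of 0.902 and 0.888. *Pdk4* had the largest spread of the 7 genes within groups, 0.387 on the log2 scale.

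*Ppara*, the receptor gene, was dim everywhere and was not tested. Its normalized signal was 3.92 and 3.85 in WR, 0.25 and 0.488 in DSW1200, 1.14 and 0.475 in SeW, and 0.25 and 0.625 in TW. WR thus lay above all 6 other arrays, at a level that is itself under the 6.69 required for testing. When the brightness requirement was dropped and values under 1 were set to 1, the log2 change in WR was 1.96, with an adjusted p of 0.28. No receptor level in DSW1200, SeW or TW can be read from these values.

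**Figure D2:**
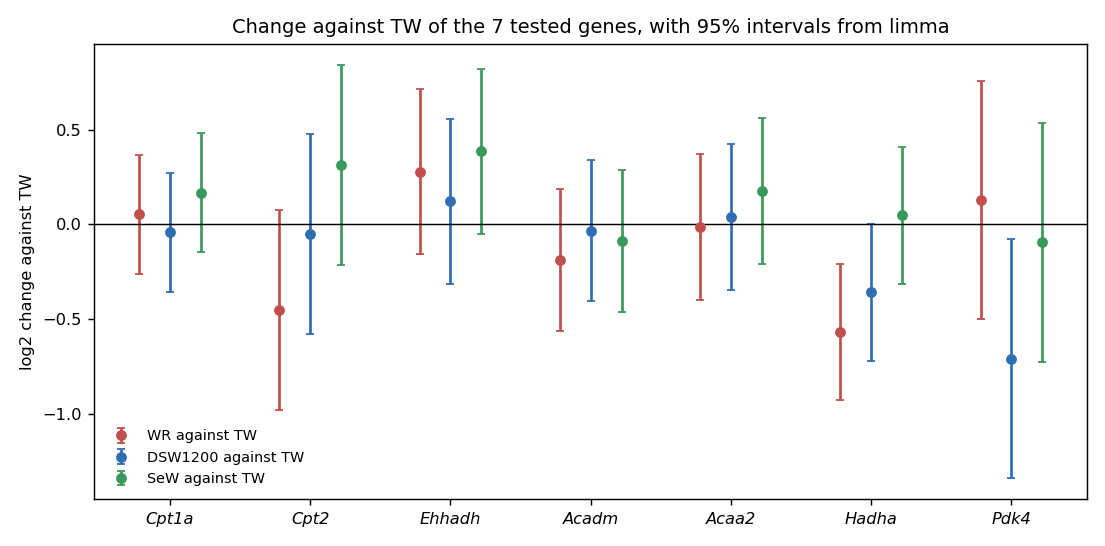
Log2 change against TW of the 7 tested genes in WR, DSW1200 and SeW (points), with 95% intervals from limma (bars). The intervals of *Hadha* in WR (-0.93 to -0.21) and of *Pdk4* in DSW1200 (-1.34 to -0.08) leave out 0 before adjustment, and no adjusted p is under 0.307.

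The counts of the 7 genes can be read beside those of all genes. In WR against TW, 3 of the 7 were above and 4 below TW, with a median of -0.01, which is also the median over the 9258 genes. No gene of the 7 was called, where 0.0108% of all genes were, 1 (*Hadha*) had an unadjusted p under 0.05, where 9.7% of all genes had, and in 3 (*Cpt1a*, *Cpt2*, *Hadha*) the 2 groups did not overlap, where 39.7% of all genes did not. In DSW1200 against TW, 2 were above and 5 below, with a median of -0.04 against -0.02 over all genes. None was called, as was true of 0% of all genes, 1 (*Pdk4*) had an unadjusted p under 0.05 (7.92% of all genes), and 2 (*Hadha*, *Pdk4*) did not overlap (35.9%). In SeW against TW, 5 were above and 2 below, with a median of 0.17 against -0.04 over all genes. None was called (1.91% of all genes), none had an unadjusted p under 0.05 (19.6%), and 2 (*Cpt1a*, *Ehhadh*) did not overlap (51.2%). The 3 comparisons share the TW arrays, so they are not independent of each other.

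The contrasts among WR, DSW1200 and SeW gave no call among the 7 either. In SeW against DSW1200, 6 of the 7 genes were above DSW1200, with a median of 0.27 against -0.04 over all genes. None was called (2.72% of all genes), 1 (*Hadha*) had an unadjusted p under 0.05 (20%), and 4 (*Cpt1a*, *Ehhadh*, *Hadha*, *Pdk4*) did not overlap (53.9%). In SeW against WR, 6 of 7 were above WR, with a median of 0.12, none was called (1.23%), 2 (*Cpt2*, *Hadha*) had an unadjusted p under 0.05 (16.5%), and 3 (*Cpt1a*, *Cpt2*, *Hadha*) did not overlap (54.2%). In DSW1200 against WR, 4 of 7 were above WR, with a median of 0.05, none was called (0%), 1 (*Pdk4*) had an unadjusted p under 0.05 (5.84%), and 3 (*Cpt2*, *Hadha*, *Pdk4*) did not overlap (35.6%). In the F test no gene of the 7 was called (0.616% of all genes) and 1 (*Hadha*) had an unadjusted p under 0.05 (17.6%). No gene of the 7 passed 2-fold in any comparison, a size that 4.8% of all genes passed in WR, 4.26% in DSW1200 and 6.8% in SeW against TW. The share was 6.2% in SeW against DSW1200, 5.07% in SeW against WR and 3.31% in DSW1200 against WR.

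From the lowest to the highest of the 8 arrays, they differed by 0.335 (*Cpt1a*) to 1.21 (*Pdk4*) on the log2 scale, with a median of 0.663, against 0.953 over all tested genes. Their median standard deviation within groups was 0.184, against 0.26. *Cpt2* and *Pdk4* were above the medians over all genes on both measures, and levels of brightness were not matched.

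On the values as deposited, without normalization between arrays, all 7 passed the threshold in SeW against TW, with log2 changes of 0.72 (*Acadm*) to 1.35 (*Ehhadh*), and 39 of 69 further genes of the pathway passed as well. The median over all genes tested in that fit was 0.92, and 4390 genes were called higher and 5 lower, against 74 higher and 103 lower after quantile normalization. Relative to that median, *Acadm* and *Pdk4* were lower and the other 5 higher by under 0.5.

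Probe sets of the same gene did not always move together. For *Cpt1a*, the dimmer probe set (1367836_at) read 23.1 and 17.4 in WR, 15.9 and 14.4 in DSW1200, 26.6 and 41.3 in SeW, and 21.4 and 21.1 in TW. As with the brighter one (1386946_at), SeW was the highest group, here by 0.64 on the log2 scale against TW (adjusted p 0.304, over all probe sets) and by 1.13 against DSW1200 (adjusted p 0.088). For *Acaa2*, the dimmer probe set (1380504_at) ran the other way from the brighter one (1386880_at) in SeW. It read 71.9 and 56.6 in WR, 57.3 and 58.9 in DSW1200, 47.9 and 35.8 in SeW, and 51 and 61.6 in TW, a log2 change of -0.44 in SeW against TW (adjusted p 0.35), where the brighter one gave 0.18.

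The lower *Hadha* of WR and DSW1200 and the lower *Pdk4* of DSW1200, against TW, were smaller or turned at the next probe set of each gene. At the next one of *Hadha* (1394857_at), signals were 15.3 and 8.94 in WR, 18.8 and 16.1 in DSW1200, 16.5 and 16.2 in SeW, and 12.6 and 14 in TW, so that DSW1200 lay above TW by 0.39 on the log2 scale (adjusted p 0.768), opposite to the brightest (1370164_at). The dimmest of *Hadha* (1394763_at) stayed between 0.238 and 7.14 over the 8 arrays. At the dimmer probe set of *Pdk4* (1369150_at), signals were 15.7 and 8.06 in WR, 13.7 and 8.52 in DSW1200, 12.4 and 23.1 in SeW, and 5.9 and 9.2 in TW, a log2 change of 0.55 in DSW1200 against TW (adjusted p 0.768), where the brightest (1378074_at) gave -0.71. When the probe sets of a gene were averaged, *Hadha* changed by -0.06 in WR and *Pdk4* by -0.08 in DSW1200 (adjusted p 0.966 and 0.945). That average counts dim and bright probe sets equally, and for *Hadha* it includes 1394763_at, which was itself too dim to test. It therefore does not settle which probe set reads the gene correctly. Where on the transcripts these probe sets lie was not analysed here.

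**Figure D3:**
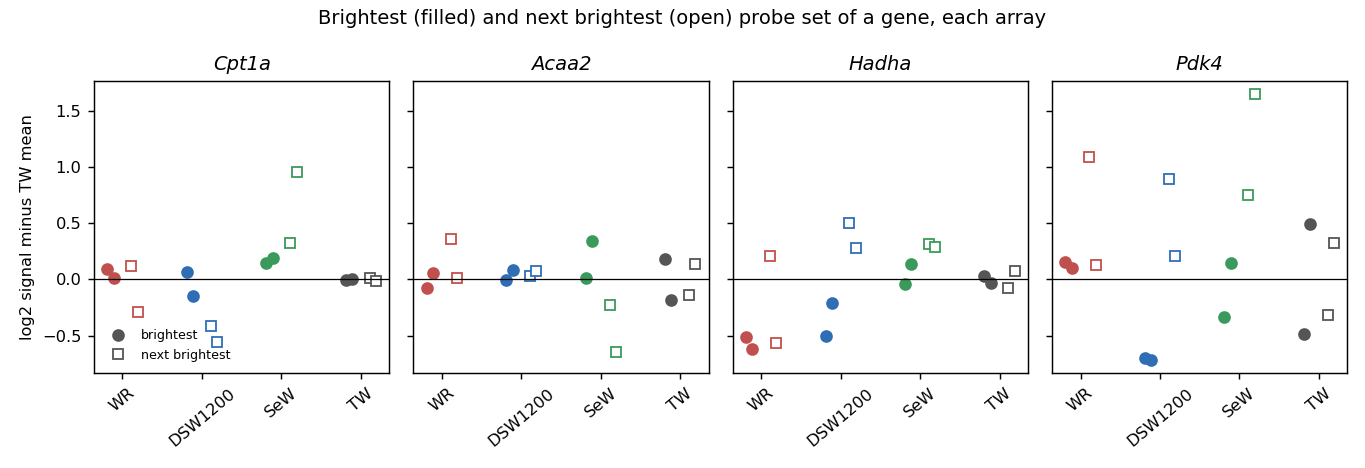
Log2 signal minus the TW mean on each array, for the brightest probe set (filled circles) and the next brightest (open squares) of the 4 genes with more than 1. For *Pdk4* the DSW1200 arrays lie below 0 at the brightest probe set (change -0.71) and above 0 at the next (0.55), and for *Acaa2* the SeW arrays part the other way round (0.18 and -0.44).

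Over the 8 arrays the 7 genes did not vary as 1 group. Of their 21 pairs, 17 had a Pearson correlation of log2 signal above 0, with a median of 0.195, the highest for *Cpt2* with *Hadha* (0.812) and the lowest for *Cpt1a* with *Acadm* (-0.298). These are descriptions over 8 arrays that share the group means and the normalization, and no p is given. Among all tested genes, those nearest to *Cpt2* were *Acadl* (0.973), the long-chain acyl-CoA dehydrogenase, *Plin3* (0.961) and *Sfswap* (0.953). Those nearest to *Pdk4* were *Esrp1* (0.974), *Lcmt2* (0.967) and *Hadh* (0.948), the mitochondrial hydroxyacyl-CoA dehydrogenase of short chains. *Cpt1a* was nearest to *Ubn2* (0.974), *Creb3l3* (0.956), a liver and gut transcription factor known to work with PPAR-alpha, and *Mbp* (0.949). The nearest to *Hadha* were *Acrbp* (0.951), *Aldh1l1* (0.95) and *Eno1* (0.949), and those to *Acadm* were *Ugt2b35* (0.986), *Sts* (0.977) and *Mkrn1* (0.975). *Acaa2* was nearest to *Aqp11* (0.934), *Ganab* (0.927) and *Dera* (0.916), and *Ehhadh* to *Mknk1* (0.953), *Sf3a3* (0.934) and *Sf1* (0.923). Of these 21 neighbours, *Acadl*, *Hadh* and *Creb3l3* were also on the lists of pathway genes used below.

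The wider pathway was described by 10 lists of other genes, 89 in all, of which 80 had a probe set of their own and 69 were tested. In WR, 48 of the 69 lay below TW and 21 above, with a median of -0.20 against -0.01 over all genes. None was called by limma and 13 had an unadjusted p under 0.05 (9.7% of all genes). In DSW1200, 44 lay below TW and 25 above, with a median of -0.075 against -0.02, none was called and 4 had an unadjusted p under 0.05 (7.92% of all genes). In SeW, 37 lay below TW and 32 above, with a median of -0.02 against -0.04, 14 had an unadjusted p under 0.05 (19.6% of all genes), and 2 fell, *Acads* and *Slc27a4* (1.91% of all genes were called). The shares of the lists in SeW are thus near those of all genes. None of the 69 was called in the F test, in which the smallest adjusted p was 0.0845 and 15 had an unadjusted p under 0.05 (17.6% of all genes).

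*Acads*, the acyl-CoA dehydrogenase of short chains, read 126 and 132 in SeW, against 230 and 249 in TW, with 167 and 194 in WR and 206 and 209 in DSW1200. Its log2 change in SeW against TW was -0.89 ± 0.16 (SE, adjusted p 0.0346). *Slc27a4*, which takes up and activates long-chain fatty acids in enterocytes, read 1210 and 1110 in SeW, against 1820 and 1920 in TW, with 1360 and 1400 in WR and 1730 and 1530 in DSW1200. Its log2 change in SeW was -0.69 ± 0.13 (adjusted p 0.0359). For both genes the 4 groups stood in the same order without overlap between SeW and the others. Both calls were lost under median centring, at log2 changes of -0.79 and -0.71 (adjusted p 0.238 and 0.315), and on the values as deposited the signs turned, to 0.06 for *Acads* and 0.14 for *Slc27a4*. Leaving out either WR array, either SeW array or TW array 2 also ended both calls, with adjusted p-values of 0.0668 to 0.254.

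**Figure D4:**
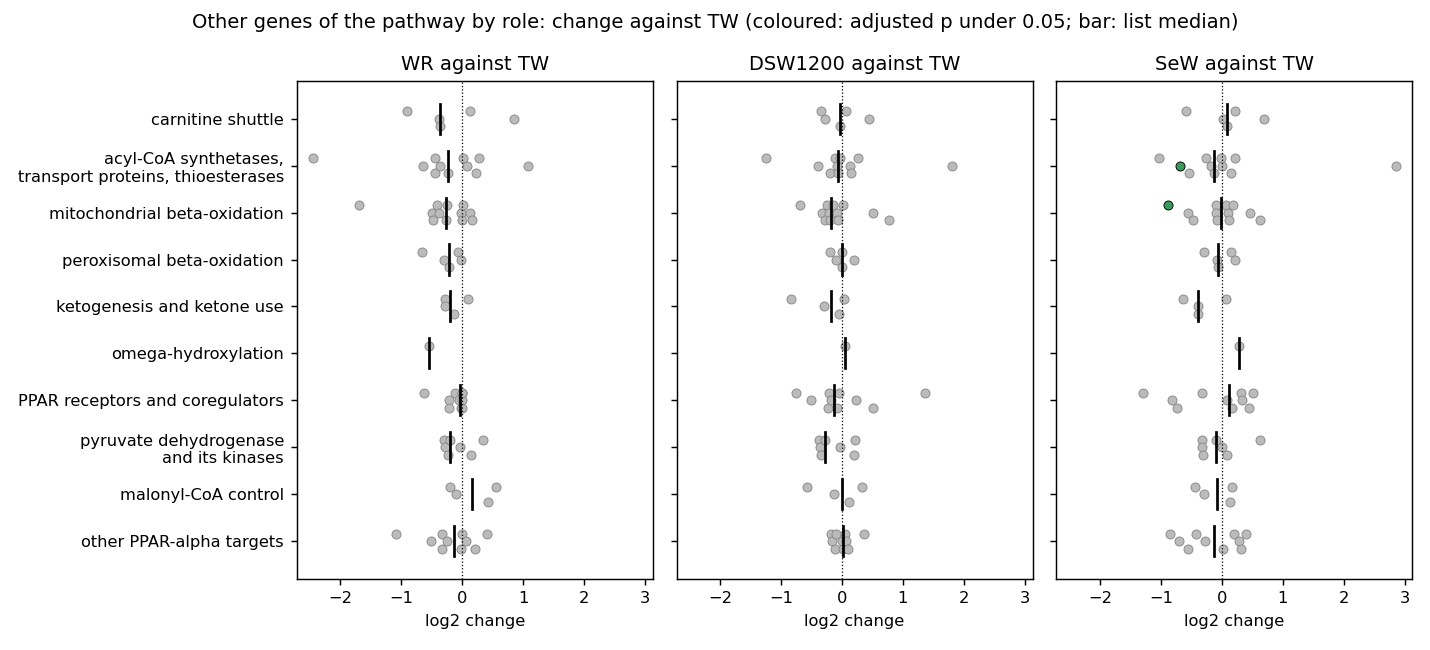
Log2 change against TW of the 69 tested pathway genes, 1 row for each of the 10 lists (points), with the median of each list (bars), in WR, DSW1200 and SeW. The 2 coloured points are the genes past an adjusted p of 0.05, *Slc27a4* and *Acads* in SeW, and the point near 2.86 in SeW is *Acot12*.

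Upstream of the mitochondrion, the list of acyl-CoA synthetases, transport proteins and thioesterases had 5 of 11 tested genes above TW in WR, 4 in DSW1200 as well as 3 in SeW. *Slc27a2*, a fatty acid transporter and activator of very long chains, read 29.4 and 62.6 in WR, 118 and 83.5 in DSW1200, 122 and 108 in SeW, and 72.8 and 757 in TW. TW array 2 stood far above every other array for this gene, and both WR arrays lay below both TW arrays (-2.45 on the log2 scale, adjusted p 0.453). *Acot12*, a cytosolic thioesterase for acetyl-CoA, read 6.34 and 9.25 in WR, 11 and 14.7 in DSW1200, 21.1 and 33.1 in SeW, and 1.08 and 12.3 in TW, with an adjusted p of 0.133 in SeW.

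Among the 5 carnitine shuttle genes, 3 were below TW in WR, 3 in DSW1200 as well as 1 in SeW. *Crat*, the acetyltransferase that buffers acetyl groups on carnitine, read 185 and 150 in WR, 201 and 301 in DSW1200, 189 and 228 in SeW, and 308 and 313 in TW. All 6 arrays of the other groups lay below TW, with log2 changes of -0.90, -0.34 and -0.58 in WR, DSW1200 and SeW (adjusted p 0.373, 0.672 and 0.186). *Slc25a20*, the carrier that swaps acylcarnitine for carnitine between the steps of *Cpt1a* and *Cpt2*, read 239 and 189 in WR, against 289 and 264 in TW (-0.38, adjusted p 0.538). *Crot*, the peroxisomal octanoyltransferase, read 182 and 151 in WR, against 139 and 60.6 in TW (0.85, adjusted p 0.498).

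In the list of mitochondrial beta-oxidation, 9 of 12 genes were below TW in WR, 9 in DSW1200 as well as 6 in SeW. *Hadhb*, the beta subunit that forms the trifunctional protein with the product of *Hadha*, read 812 and 917 in WR, 871 and 997 in DSW1200, 939 and 1030 in SeW, and 1040 on both arrays in TW. Its log2 changes, -0.27, -0.16 and -0.08 in WR, DSW1200 and SeW, had adjusted p-values of 0.561, 0.74 and 0.807. *Eci1*, an isomerase needed for unsaturated chains, read 78.2 and 40.9 in WR, 86.6 and 150 in DSW1200, 107 and 163 in SeW, and 191 and 177 in TW. Its change in WR, -1.70 ± 0.35 (SE), had an unadjusted p of 0.000733 and an adjusted p of 0.334. *Decr1*, a reductase for the same chains, read 217 and 185 in WR, 444 and 524 in DSW1200, 296 and 509 in SeW, and 297 and 266 in TW. WR and DSW1200 thus lay on opposite sides of TW, at -0.49 and 0.78 on the log2 scale, and DSW1200 exceeded WR by 1.27 (unadjusted p 0.000398, adjusted p 0.72).

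All 5 tested genes of peroxisomal oxidation were below TW in WR, with a median of -0.22. *Pex11a*, which divides peroxisomes, read 57.4 and 48.4 in WR, against 79.3 and 86.4 in TW (-0.65, adjusted p 0.453). *Abcd3*, a transporter of the peroxisomal membrane, differed by -0.30 in WR (adjusted p 0.532), and *Scp2*, which holds a peroxisomal thiolase, by -0.06 (adjusted p 0.882). *Cyp4a1*, which begins omega-oxidation at the far end of the chain, read 56.6 and 47.1 in WR, 73.2 and 83.2 in DSW1200, 82.3 and 100 in SeW, and 66.5 and 84.6 in TW. Its WR arrays were the lowest of all, by -0.54 on the log2 scale against TW (adjusted p 0.498).

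Of the genes of ketone bodies, 4 were tested. *Bdh1*, which interconverts the 2 main ketone bodies, read 153 and 137 in WR, 61.4 and 156 in DSW1200, 127 and 99.4 in SeW, and 171 and 179 in TW. Every array of the other groups was below TW, with log2 changes of -0.27, -0.84 and -0.64 in WR, DSW1200 and SeW (adjusted p 0.822, 0.617 and 0.356). *Oxct1*, which activates acetoacetate for use, read 454 and 461 in SeW, against 549 and 653 in TW (-0.39, adjusted p 0.222). *Acat1*, a mitochondrial thiolase of both directions, read 316 and 333 in DSW1200, against 422 and 379 in TW (-0.30, adjusted p 0.617).

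Among receptors and coregulators, *Ppard*, the PPAR that intestine also expresses, read 96 and 76.2 in WR, 81 and 108 in DSW1200, 73.4 and 39.8 in SeW, and 128 and 137 in TW. Its change in SeW, -1.29 ± 0.29 (SE), had an adjusted p of 0.054. *Ppard* passed with an offset of 32 (adjusted p 0.0404) and with averaged probe sets (-2.31, adjusted p 0.0242). It passed under no other setting that was judged by adjusted p, and averaging gives weight to its dimmer probe sets. *Ppargc1a*, a coactivator of PPARs and of mitochondrial genes, read 114 and 145 in SeW, against 54.4 and 68.8 in DSW1200, and rose by 1.07 ± 0.21 in that comparison (adjusted p 0.0348). *Rxrb*, a retinoid X receptor, read 19.6 and 14.9 in SeW, against 42.4 and 39.2 in DSW1200, and fell by 1.26 ± 0.26 (adjusted p 0.0392). Both calls were lost under median centring, with adjusted p-values of 0.0651 and 0.109, and on the values as deposited only that of *Ppargc1a* held (0.00138). Both held with an offset of 32 (0.0297 and 0.0326) and with averaged probe sets (0.0267 and 0.0449). With a replicate block and in fits to the 4 arrays compared, only that of *Ppargc1a* held (0.0407 and 0.0483). Among separate probe sets, *Ppargc1a* passed at log2 changes of 2.5, 1.3 and 1.07 (0.0181, 0.0247 and 0.0328), and *Rxrb* at -1.26 (0.0362). Both calls were lost without the brightness requirement (0.0896 and 0.0948) and without an intensity trend (0.115 and 0.0987). With the beta-actin ratio as a covariate, which was lowest on the SeW arrays and hard to tell apart from SeW, the changes were 0.31 and -0.38 (adjusted p 0.984 for each). Leaving out any 1 array of WR, DSW1200 or SeW ended both, with adjusted p-values of 0.0678 to 0.276. Against TW these 2 genes had log2 changes of 0.32 and -0.74 in SeW (adjusted p 0.441 and 0.158). No further gene of the lists was called in SeW against DSW1200, and none in SeW against WR or in DSW1200 against WR.

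The kinases and subunits around *Pdk4* gave no calls. *Pdk1* read 33.5 and 103 in SeW, against 39.6 and 36.3 in TW, so that its change of 0.63 (adjusted p 0.443) rested on SeW array 2. *Pdk2* lay below TW on all 6 arrays of the other groups, by -0.28, -0.36 and -0.33 on the log2 scale in WR, DSW1200 and SeW (adjusted p 0.648, 0.626 and 0.383), while *Pdha1*, a subunit of the enzyme they inhibit, whose WR arrays overlapped those of TW, differed by -0.23, -0.28 and -0.33 (adjusted p 0.674, 0.66 and 0.333). In the control of malonyl-CoA, *Prkaa1*, a catalytic subunit of AMP-activated kinase, differed by 0.56, 0.32 and -0.29 in the same order (adjusted p 0.538, 0.71 and 0.599). *Acaca*, which makes malonyl-CoA, differed by -0.10, -0.57 and -0.44 (adjusted p 0.941, 0.645 and 0.502), and *Mlycd*, which removes it, by 0.43, 0.12 and 0.13 (adjusted p 0.643, 0.915 and 0.849).

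Other known PPAR-alpha targets gave no call against TW either. *Angptl4*, a secreted lipase inhibitor, read 20.4 and 16.6 in WR, 27.9 and 62.1 in DSW1200, 33.3 and 25.5 in SeW, and 38.1 and 39.8 in TW. Its WR arrays were the lowest of all, by -1.08 ± 0.36 (SE) against TW, with an unadjusted p of 0.0137 and an adjusted p of 0.453. *Plin2*, a coat protein of lipid droplets, read 1700 and 1120 in WR, 1540 and 1950 in DSW1200, 1010 and 1160 in SeW, and 1770 and 2180 in TW, a change of -0.86 in SeW (adjusted p 0.0716). *Vnn1*, an enzyme that recycles pantothenate, read 658 and 432 in SeW, against 843 and 887 in TW (-0.70, adjusted p 0.134).

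Signals of cell type markers and the 3' to 5' ratio of beta-actin also differed between the groups. The summed signal of 9 villus enterocyte markers was 22200 to 24900 in WR, 25700 to 25800 in DSW1200, 29700 to 30700 in SeW and 25800 to 29100 in TW, and 8 of the 9 were below TW in WR, 7 in DSW1200 as well as 1 in SeW, none of them called. The lowest sums thus stood with the lower *Hadha* and *Cpt2* of WR, and their part in those values was not tested. In SeW, the summed signal of 10 myeloid markers was 239 to 274, against 342 to 460 in TW. All 8 tested ones were below TW and none was called, while *Cd14* and *Itgam*, too dim to test, read above TW on both SeW arrays. The part of these markers in the calls of *Acads* and *Slc27a4* was not tested. The summed signal of the 9 crypt markers with a probe set was 547 to 704 in WR, 333 to 362 in DSW1200, 547 to 717 in SeW and 434 to 589 in TW. Of its 6 tested genes, 6 were above TW in WR and in SeW and 5 in DSW1200, with medians of 0.91 in WR, 0.96 in SeW and 0.42 in DSW1200 on the log2 scale and none called, so in DSW1200 the sum and the median differ in sign. Of 4 tested markers of T cells and intraepithelial lymphocytes, all were below TW in SeW, with a median of -0.58. The summed signals of all 6 such markers with a probe set were 172 to 197 in SeW, against 230 to 331 in TW. Of 5 tested pancreatic acinar markers, all were above TW in WR, with a median of 1.39, and 4 were below TW in SeW, with a median of -1.25. The summed signals of all 8 acinar markers with a probe set were 111 to 565 in WR and 67.1 to 81.2 in SeW, against 48.3 to 171 in TW. All 5 tested enteroendocrine markers were below TW in WR and in DSW1200, with medians of -0.26 and -0.19. SeW had 4 of these 5 below TW and a lower median, -0.33. Goblet markers, 6 tested, had 5 below TW in each of these groups, with medians of -0.135 (WR), -0.118 (DSW1200) and -0.213 (SeW). Fibroblast and smooth muscle markers, 8 tested, had 1 below TW in WR and 0 in DSW1200 or SeW. Their medians were 0.498 (WR), 0.418 (DSW1200) and 0.396 (SeW). None of these markers was called, and the part of these cells in the changes of the 7 genes was not tested. The 3' to 5' ratio of beta-actin was 13.6 and 10.9 on the SeW arrays and 20.6 to 32.8 on the others. SeW and a low ratio thus went together, and a fit with both can hardly tell them apart. With this ratio as a covariate the log2 changes of *Cpt2*, *Ehhadh* and *Hadha* in SeW became -0.76, -0.06 and -0.40 (adjusted p 0.688, 0.986 and 0.799). Those of *Acadm* and *Pdk4* in SeW became -0.91 and -1.27 (adjusted p 0.507 and 0.591), the second of them past 2-fold. In that fit *Pdk4* in DSW1200 changed by -0.14 (adjusted p 0.999) and *Hadha* in WR by -0.55 (adjusted p 0.467).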

How the data were processed

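The authors deposited linear MAS5 intensities, 1 value a probe set, for 8 Affymetrix Rat Genome 230 2.0 arrays, 2 in each of 4 groups; the MAS5 version is not given in the sources used here. The study's methods state quantile normalization, but the deposited intensities have unlike medians, so each array was quantile normalized, raised to at least 1 and put on the log2 scale. Probe sets with 1 gene symbol (20826 of 31099) were used. The brightest probe set on average stood for each gene, and 9258 of 14217 genes with a mean signal over 6.69 were tested.

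A linear model with group as its only term was fitted to all 8 arrays (4 residual degrees of freedom) in R 4.3.3 with limma 3.58.1, with an intensity trend in the empirical Bayes step, Benjamini-Hochberg adjustment over 9258 genes and a threshold of 0.05. Log2 changes had standard errors of 0.264 at the median, and the number of arrays limits the precision. The code was tested on simulated data. The alternatives were no normalization, median centring, no filter, an offset of 32, averaged or separate probe sets, no trend, a replicate block, fits to only the 4 arrays of a contrast, the beta-actin ratio as a covariate, a 2-fold criterion and leaving out each array.

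The 8 genes and all lists were chosen with earlier results of these data known. The text names all 8 genes, list genes that passed against TW or in the F test, the 3 with the smallest F test p in each list, the 3 nearest genes of each member, and *Bdh1*, *Angptl4*, *Slc25a20* and *Hadhb*. Some items that the rule names are not reported here. *Ppargc1a* and *Rxrb* fall under this rule by their F test p. Promoter sequences come from RefSeq (GRCr8). A genome was not used here.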

Additional observations from a re-analysis of the deposited data

How the results depend on the processing

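Over 17 other settings, 357 changes of the 7 tested genes against TW were computed: 315 kept their direction and their side of the threshold and 36 turned their sign. None had passed the threshold before, and 8 passed it under another setting, 7 on the values as deposited in SeW and 1 (*Pdk4* in DSW1200) without TW array 1. On the values as deposited, where the median gene shifts by 0.38, 0.06 and 0.92 in WR, DSW1200 and SeW against TW, 7 genes passed in SeW against TW, 7 in SeW against DSW1200, 3 in SeW against WR and 6 in the F test, with 39 pathway genes passing in SeW against TW. Of all 9257 genes tested in that setting, 4395 passed in SeW against TW, 3740 in SeW against DSW1200, 973 in SeW against WR and 2766 in the F test. The median of the 7 was then 0.284 in WR and 1.092 in SeW, and signs turned for *Acadm* (0.061) and *Acaa2* (0.284) in WR, *Cpt1a* (0.041), *Cpt2* (0.004) and *Acadm* (0.023) in DSW1200, and *Acadm* (0.718) and *Pdk4* (0.864) in SeW. Median centring gave a median of -0.214 in WR and turned *Cpt1a* (-0.145) and *Pdk4* (-0.089) in WR and *Pdk4* (0.012) in SeW. It called 51 genes of all higher and 14 lower in SeW, against 74 higher and 103 lower.

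Averaged probe sets turned *Cpt1a* (-0.014) and *Acaa2* (0.087) in WR and *Acaa2* (-0.13) and *Pdk4* (0.554) in SeW, with a median of 0.387 in SeW. The beta-actin covariate turned *Cpt2* (0.472) and *Acadm* (0.367) in DSW1200 and *Cpt2* (-0.764), *Ehhadh* (-0.06) and *Hadha* (-0.404) in SeW, with a median of -0.404 there. That covariate can hardly be told apart from SeW. Fits to the 4 arrays compared called 1 of the 7, *Hadha*, in SeW against WR, and 446 of all genes.

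Of the 2 pathway genes that passed in SeW against TW, 0 passed with median centring, no filter, no intensity trend, the 4 arrays compared or the actin covariate, and 1 with the replicate block. With averaged probe sets *Slc27a4* was lost (adjusted p 0.051) and *Ppard* passed (0.0242), as it did with the offset of 32 (0.0404). The 2-fold criterion was met by 4 pathway genes in WR, 3 in DSW1200 and 3 in SeW, where 4.8%, 4.26% and 6.8% of all genes met it. Arrays of the same number did not deviate together (correlations of -0.0647 to 0.0398), so the numbers were not taken to pair arrays. The cause of these shifts was not tested.

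Leaving out 1 array called 0 to 1 of the 7 in DSW1200 against TW and 0 to 1 in the F test (*Pdk4*, without TW array 1), and 0 to 2, 0 to 1 and 0 to 5 pathway genes in WR, DSW1200 and SeW against TW. Without TW array 1, 5 passed in SeW. The median of the 7 ranged over -0.304 to 0.009 in WR, -0.186 to 0.085 in DSW1200 and 0.01 to 0.187 in SeW. Log2 changes that turned sign ranged, in WR, over -0.195 to 0.17 (*Acaa2*) and -0.361 to 0.618 (*Pdk4*). In DSW1200 they ranged over -0.145 to 0.065 (*Cpt1a*), -0.238 to 0.135 (*Cpt2*), -0.085 to 0.326 (*Ehhadh*), -0.186 to 0.119 (*Acadm*) and -0.144 to 0.222 (*Acaa2*). In SeW they ranged over -0.215 to 0.042 (*Acadm*), -0.007 to 0.356 (*Acaa2*), -0.039 to 0.136 (*Hadha*) and -0.585 to 0.395 (*Pdk4*).

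Counts over all genes moved far more. In SeW against TW, 177 genes were called, 1 to 518 with 1 array left out and 0 to 4395 under the other settings. In SeW against DSW1200 it was 252, 3 to 435 and 0 to 3740, in SeW against WR 114, 1 to 217 and 0 to 973, and in the F test 57, 2 to 407 and 0 to 2766. In WR against TW it was 1, 0 to 217 and 0 to 444, in DSW1200 against TW 0, 0 to 125 and 0 to 394, and in DSW1200 against WR 0, 0 to 5 and 0 to 306. Dim probe sets limit what can be said of *Ppara*.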
